A study of Mus musculus with 24 samples.

Results

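The TNF superfamily genes described here are 10 rows of the read-count table with the symbols Tnf, Tnfsf9, Tnfsf10, Tnfrsf1a, Tnfrsf1b, Fas, Tnfrsf10b, Cd40, Tnfrsf9 and Tnfrsf12a, out of 21669 genes in all. They were chosen by symbol, with earlier results of these data known, so counts of members set beside all genes are not free of that choice. Each was compared over the 5 treatment groups of 2 mouse cell lines. K-Luc is a glioma line of C57BL/6 origin, KR158B cells that express luciferase. RAW-Blue is the RAW 264.7 macrophage line with an integrated secreted phosphatase reporter for NF-κB and AP-1. The groups were a water control (untreated), the oligonucleotide CpG-28 at 10 µg/mL (CpG), single-walled carbon nanotubes at 10 µg/mL in 10 µg/mL of a lipid-PEG (SWNT/LP), CpG-28 and SWNT/LP given together at the same concentrations (CpG+SWNT/LP), and nanotubes dispersed in CpG-28 itself, each at 10 µg/mL (SWNT/CpG). No group received nanotubes on an oligonucleotide without CpG, such an oligonucleotide alone, or the lipid-PEG alone. In SWNT/LP, nanotubes and lipid-PEG therefore cannot be told apart. SWNT/CpG held no lipid-PEG, so its differences from CpG+SWNT/LP mix the lipid-PEG with the joining of CpG-28 to nanotubes. Cells adhered for 24 h in migration-assay dishes and were then treated for 17 to 19 h (K-Luc) or 47 to 50 h (RAW-Blue), so cell line and treatment time cannot be told apart. K-Luc had 2 untreated libraries and 3 in each other group. RAW-Blue had 2 libraries in every group.

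Ligands of the TNF superfamily are trimeric proteins, most of them anchored in the membrane, that cluster their receptors on the responding cell. Receptors with a cytoplasmic death domain (Fas, Tnfrsf1a and Tnfrsf10b) can assemble caspase-activating complexes, while receptors without one (Tnfrsf1b, Cd40, Tnfrsf9 and Tnfrsf12a) recruit TRAF adaptors that lead to NF-κB and MAP kinases. CpG oligonucleotides are sensed by the endosomal receptor Tlr9 in macrophages, whose secretion of TNF is a classical readout of that pathway.

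Promoter sequences are shown first for the only member windows that held a match to the letters searched, those of Tnf, Fas and Tnfrsf9. They were not the members with the largest responses throughout. Tnfrsf1b, with a called rise in K-Luc of similar size to that of Tnfrsf9, had a window without a match and is not shown. Of the 10 members, 7 had a start in the RefSeq promoter table of build GRCm38.p6. Cd40, Tnfsf9 and Tnfrsf10b are named only. The 250 bases before each start were searched on both strands for the NF-κB consensus, TGANTCA (the AP-1 element), TGANNTCA (a CRE-like element) and TATAAA, and matches are in capitals. Of all 32851 windows of this length, 3.90% held the NF-κB consensus, 6.75% TGANTCA, 11.9% TGANNTCA and 12.4% TATAAA. A match describes letters only and is neither a binding site nor a cause, and the counts themselves were made on another build, mm9. The Tnf window, chr17:35202008-35202257 on the minus strand, held TGANNTCA and TATAAA. The Fas window, chr19:34290409-34290658 on the plus strand, held TGANTCA. The second of the Tnfrsf9 starts, chr4:150927749-150927998 on the plus strand, held overlapping matches to the NF-κB consensus and TGANTCA. The other start of Tnfrsf9 and the windows of Tnfrsf1a, Tnfrsf1b, Tnfrsf12a and Tnfsf10 held none of these letters.
Tnf: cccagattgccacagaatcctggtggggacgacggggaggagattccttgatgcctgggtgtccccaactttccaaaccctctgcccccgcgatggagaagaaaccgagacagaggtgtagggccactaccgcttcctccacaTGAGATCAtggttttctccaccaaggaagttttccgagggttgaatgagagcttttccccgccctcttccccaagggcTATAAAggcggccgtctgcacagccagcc
Fas: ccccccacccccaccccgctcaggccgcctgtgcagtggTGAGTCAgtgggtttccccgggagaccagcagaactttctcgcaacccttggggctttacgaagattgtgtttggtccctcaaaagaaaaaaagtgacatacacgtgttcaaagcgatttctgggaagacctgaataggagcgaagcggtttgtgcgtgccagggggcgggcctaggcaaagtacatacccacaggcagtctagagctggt
Tnfrsf9: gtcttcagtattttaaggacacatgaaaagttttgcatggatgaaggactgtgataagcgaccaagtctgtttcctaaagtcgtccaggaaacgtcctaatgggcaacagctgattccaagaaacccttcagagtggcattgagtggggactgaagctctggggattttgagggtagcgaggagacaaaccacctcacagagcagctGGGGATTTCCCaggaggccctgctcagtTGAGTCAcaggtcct

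Library totals ran from 13.3 M to 24.1 M read counts. The labelled cell types were checked by markers. All 8 macrophage markers were above 1 CPM (read counts scaled to the TMM-normalised library size) in RAW-Blue, where they summed to 4447 to 5206 CPM. In K-Luc 1 of the 8 was above 1 CPM and the sum was 3.37 to 6.02 CPM. Of 7 markers of glia and neural stem cells, 3 were above 1 CPM in K-Luc (summed level 5317 to 6266 CPM) and 2 in RAW-Blue (1566 to 2005 CPM), with most of the sum in both from Vim, which encodes vimentin. Untreated K-Luc cells held Sox2 at 138 CPM and Nes at 224 CPM, markers of neural stem cells, while the astrocyte marker Gfap was at 0.141 CPM and the oligodendrocyte lineage marker Olig2 was at 0 in every library. Of 5 fibroblast and vessel markers, 2 were above 1 CPM on average in K-Luc (summed level 3895 to 8752 CPM) and 0 in RAW-Blue (1.37 to 3.00 CPM). The markers thus do not mark K-Luc as glial alone. Of 6 lymphocyte markers, 0 were above 1 CPM in either line. Libraries of a group also differed unequally. A chi-square per gene between replicates, which is near 1 for sampling noise alone, was 43.2 for the RAW-Blue untreated pair and 1.95 to 14.5 for every other pair. Replicate 1 of K-Luc stood at 7.92 to 14.5 from its group mates, against 2.63 to 3.44 between replicates 2 and 3. For this reason the main results are also given without these libraries. The share of all genes called was computed only for the main fits, so counts from runs without a library have no background beside them. Leaving out an untreated replicate of RAW-Blue, or using K-Luc replicates 2 and 3 only, leaves 1 untreated library in that line, which is then assumed to vary like the other groups. Nothing in the labels says that replicates came from separate cultures, so p-values measure only how far these libraries spread, which may be technical.

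Different members led in the 2 lines. Per length, in the authors' RPKM (reads scaled to library size and gene length), the highest member of untreated RAW-Blue cells was Tnf (46.6 and 50.8 RPKM), followed by Tnfsf9, the ligand known as 4-1BBL (34.6 and 34.7), Tnfrsf1a (18.9 and 23.3) and Tnfrsf12a (9.1 and 11.2). In this order Tnfrsf9 (6.5 and 7.6 RPKM) and Tnfrsf1b (5.7 and 6.9) overlapped, as did Cd40 and Tnfrsf10b (each 0.3 and 0.4). Untreated K-Luc cells were led by Tnfrsf12a, the TWEAK receptor also known as Fn14 (113 and 143 RPKM), ahead of Tnfrsf1a (26.6 and 28.1) and Tnfrsf1b (8.7 and 9.7). Tnfrsf9 (3.7 and 4.8 RPKM) and Tnfsf9 (3.1 and 3.2) followed, and Fas (1.1 and 1.5) overlapped Tnfrsf10b (1.2 and 1.3). Tnf, Cd40 and Tnfsf10 are listed at 0 RPKM in untreated K-Luc.

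**Figure D1:**
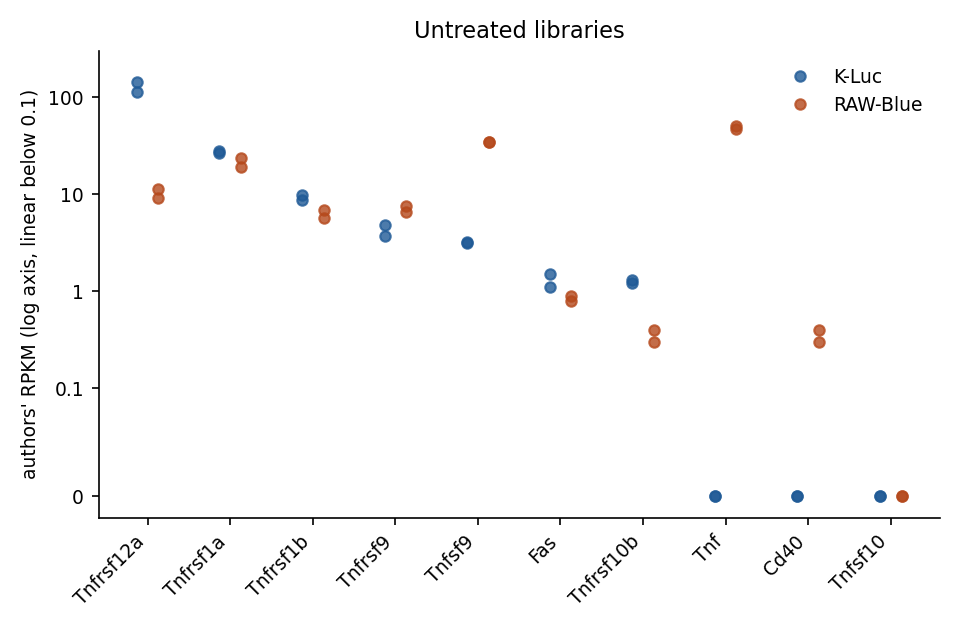
RPKM (y, log axis, linear below 0.1) of each member in the untreated libraries, 2 points per line. Tnf lies near 50 RPKM in RAW-Blue and at 0 in K-Luc, and Tnfrsf12a is above 100 RPKM in K-Luc only.

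Each of the 7 members that could be tested between untreated cells of the 2 lines was called, 2 higher and 5 lower in RAW-Blue, beside 77.9% of all tested genes (37.0% higher and 40.9% lower). Called means that edgeR's quasi-likelihood test gave an adjusted p under 0.05, with the Benjamini-Hochberg method applied to every tested gene, and ± after a log2 fold change is its standard error. Tnfsf9 was 12-fold higher in RAW-Blue (log2 3.59 ± 0.10, adjusted p = 1.03e-19). Tnfrsf12a was lower there, at -3.69 ± 0.13 (adjusted p = 8.43e-18). Tnfrsf10b was at -1.68 ± 0.17 (adjusted p = 6.26e-09). The other differences were small: Tnfrsf9 at 0.73 ± 0.22, Fas at -0.53 ± 0.23, Tnfrsf1b at -0.36 ± 0.13 and Tnfrsf1a at -0.24 ± 0.09, with adjusted p of 0.00658, 0.0439, 0.0160 and 0.0198. These 4 calls depended on the setting. That of Fas was lost with the replicate block (-0.32, adjusted p = 0.270), with no run term, and without RAW-Blue untreated replicate 1, K-Luc untreated replicate 2 or K-Luc CpG+SWNT/LP replicate 2 (adjusted p up to 0.488). Those of Tnfrsf9, Tnfrsf1b and Tnfrsf1a were lost without RAW-Blue untreated replicate 2. That of Tnfrsf9 was also lost without K-Luc untreated replicate 2, that of Tnfrsf1a without K-Luc untreated replicate 1, and those of Tnfrsf1a and Tnfrsf1b in run 2 alone. Tnf and Cd40 had no counts in untreated K-Luc, so against a floor of 3 counts over that group they were at least 1520-fold and at least 12.4-fold higher in RAW-Blue.

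Tnf, the founding cytokine of the family, was the member that moved most in macrophages. In RAW-Blue it stood at 131 and 124 CPM untreated, 236 and 257 CPM with SWNT/LP, 478 and 471 CPM with CpG, 582 and 596 CPM with CpG+SWNT/LP, and 630 and 556 CPM with SWNT/CpG. Untreated, SWNT/LP and CpG libraries formed separate steps, and the highest pair of groups overlapped each other but none of the rest. Against untreated, Tnf rose 1.94-fold with SWNT/LP (log2 0.95 ± 0.08, adjusted p = 0.00157), 3.72-fold with CpG (1.90 ± 0.08, adjusted p = 2.05e-06), 4.62-fold with CpG+SWNT/LP (2.21 ± 0.08, adjusted p = 6.82e-07) and 4.65-fold with SWNT/CpG (2.22 ± 0.08, adjusted p = 6.53e-07). In bulk RNA, more cells that express Tnf and more Tnf RNA per cell cannot be told apart. These comparisons share the same untreated libraries. Leaving out either of them moved the log2 values to no less than 0.91, 1.86, 2.17 and 2.18, and all stayed called. The rise with SWNT/LP alone was no longer called without SWNT/LP replicate 2 or with only the compared groups in the fit, where its adjusted p reached 0.222.

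Between the treatments, Tnf was higher with SWNT/CpG than with SWNT/LP (1.26 ± 0.08, adjusted p = 3.75e-05) and with CpG than with SWNT/LP (0.94 ± 0.08, adjusted p = 0.000474). CpG+SWNT/LP was higher than SWNT/LP (1.25 ± 0.08, adjusted p = 4.88e-05). SWNT/CpG and CpG+SWNT/LP differed by 0.01 (95% interval -0.17 to 0.19). The value for SWNT/CpG against CpG was 0.32 ± 0.08 and did not pass (adjusted p = 0.103), and that for CpG+SWNT/LP against CpG was 0.31 ± 0.08 (adjusted p = 0.277). Both differences from CpG were called without either untreated library, at 0.31 to 0.33: adjusted p was 0.00336 and 0.00304 for the first, and 0.00945 and 0.00906 for the second. In K-Luc, Tnf had 1 count over all 14 libraries. No treatment brought it to the floor of 3 counts over a group, and no fold change can be given.

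Cd40, the receptor through which T cells license antigen-presenting cells, rose in RAW-Blue from a low level. It stood at 1.14 and 0.947 CPM untreated, 1.38 and 1.22 CPM with SWNT/LP, 2.62 and 3.38 CPM with CpG, 2.20 and 1.72 CPM with CpG+SWNT/LP, and 4.91 and 3.30 CPM with SWNT/CpG. These levels rest on 18 to 85 counts per library. All libraries given CpG-28 were above all those without it. Cd40 rose 2.87-fold with CpG (1.52 ± 0.30, adjusted p = 0.0116) and 3.90-fold with SWNT/CpG (1.96 ± 0.28, adjusted p = 0.00101). The value for CpG+SWNT/LP was 0.90 ± 0.32 (adjusted p = 0.0722) and that for SWNT/LP 0.32 ± 0.34 (adjusted p = 0.689). SWNT/CpG was above SWNT/LP by 1.65 ± 0.27 (adjusted p = 0.00359). Against CpG+SWNT/LP its value was 1.06 ± 0.25, not called with all libraries (adjusted p = 0.0903) and called without either untreated one (adjusted p = 0.0146 and 0.0140). Against CpG it was 0.44 (95% interval -0.09 to 0.97). Without untreated replicate 1 or 2, SWNT/CpG against untreated gave 2.10 and 1.83, both called. The call of the rise with CpG was lost without CpG replicate 2 and with only the compared groups in the fit. K-Luc held 2 Cd40 counts in 14 libraries, both in SWNT/CpG replicate 1.

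Tnfrsf1b, the second TNF receptor, stood in RAW-Blue at 88.9 and 76.6 CPM untreated, 82.1 and 87.2 CPM with SWNT/LP, 98.4 and 93.6 CPM with CpG, 111 and 121 CPM with CpG+SWNT/LP, and 127 and 101 CPM with SWNT/CpG. The CpG, CpG+SWNT/LP and SWNT/CpG libraries were above the untreated libraries without overlap. It rose with CpG+SWNT/LP (0.49 ± 0.12, adjusted p = 0.0169) and SWNT/CpG (0.46 ± 0.12, adjusted p = 0.0174), and the CpG value was 0.21 ± 0.12 (adjusted p = 0.264). The SWNT/CpG call was lost without SWNT/CpG replicate 1, and the CpG+SWNT/LP call without either library of that group. Both were also lost with only the compared groups in the fit. Without untreated replicate 1 or 2, SWNT/CpG gave 0.57 and 0.35, both called. SWNT/CpG was also higher than SWNT/LP (0.43 ± 0.12, adjusted p = 0.0425). That call was lost with only the compared groups, and without SWNT/CpG replicate 1 or any of the 6 libraries of CpG, CpG+SWNT/LP and SWNT/LP.

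**Figure D2:**
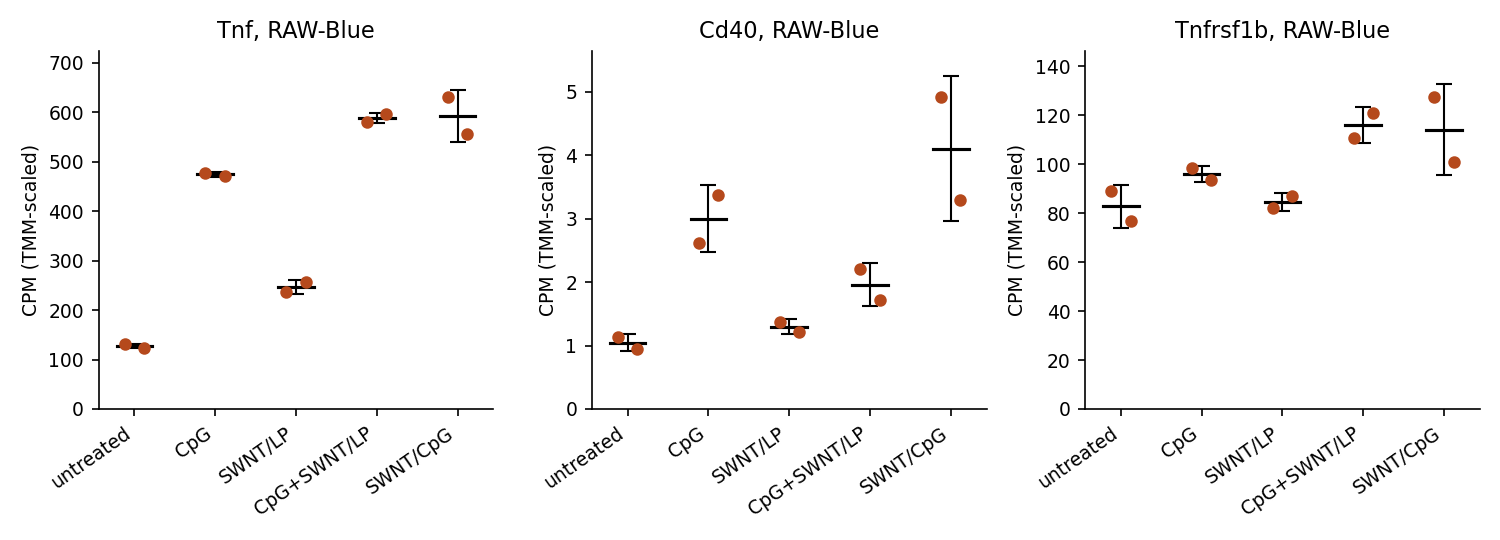
TMM-scaled CPM (y) of Tnf, Cd40 and Tnfrsf1b in RAW-Blue by treatment (x), with 1 point per library and bars for the mean ± SD of 2 libraries. Tnf climbs from 131 and 124 CPM untreated to 630 and 556 CPM with SWNT/CpG, and Cd40 from 1.14 and 0.947 to 4.91 and 3.30 CPM.

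The counts of RAW-Blue members that passed, out of 9 tested, were 2 with CpG (10.8% of all tested genes were called), 1 with SWNT/LP (0.478%), 3 with CpG+SWNT/LP (20.3%) and 3 with SWNT/CpG (23.2%), all of them higher (5.18%, 0.434%, 10.1% and 12.8% of all genes were). SWNT/CpG against SWNT/LP called 3 (10.3%), CpG+SWNT/LP against SWNT/LP 1 (4.82%) and CpG against SWNT/LP 1 (2.41%). SWNT/CpG against CpG (0.842%), SWNT/CpG against CpG+SWNT/LP (0.825%) and CpG+SWNT/LP against CpG (0.130%) called 0 of 9 in edgeR and in DESeq2, and 1, 1 and 4 members had an unadjusted p under 0.05. The test for any difference over the 5 groups called Tnf, Cd40 and Tnfrsf1b (16.4% of all genes). The counts that follow come from runs without 1 library, for which the share of all genes called was not computed. They cannot be read as a result about the members. Against untreated, leaving out untreated replicate 2 gave 4 calls for CpG, 2 for SWNT/LP and 5 for SWNT/CpG. CpG called 1 without CpG replicate 2, SWNT/LP 0 without SWNT/LP replicate 2, and CpG+SWNT/LP 1 without either of its libraries. Without untreated replicate 1 or 2, SWNT/CpG called 1 against CpG and 1 against CpG+SWNT/LP, CpG+SWNT/LP called 2 against CpG and 4 against SWNT/LP, and CpG called 3 against SWNT/LP. Without either SWNT/CpG library, CpG+SWNT/LP against SWNT/LP called 2. The third CpG+SWNT/LP call was Tnfrsf12a, at 17.2 and 14.4 CPM untreated and 22.4 and 20.6 CPM treated (0.45 ± 0.14, adjusted p = 0.0494). It was lost in DESeq2, with only the compared groups and without untreated replicate 2 (0.32). The call was also lost without any of the 6 libraries of CpG+SWNT/LP, SWNT/LP and SWNT/CpG.

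Of the other RAW-Blue members, Tnfsf9 stayed within 63.4 to 77.2 CPM over all 10 libraries, and its SWNT/CpG value was -0.04 with a 95% interval of -0.21 to 0.12. Tnfrsf1a ran from 62.2 to 79.7 CPM, and its highest library was untreated replicate 1. With all libraries it was called in no treatment. With untreated replicate 2 left out it was called lower in every treatment (adjusted p from 0.00064 with CpG to 0.00685 with SWNT/LP), but the untreated group is then that highest library alone. Tnfrsf10b, the mouse TRAIL receptor, stood at 2.79 and 3.10 CPM untreated and 4.39 and 4.15 CPM with SWNT/CpG (0.53 ± 0.18, adjusted p = 0.0642). Its ligand Tnfsf10, known as TRAIL, had 6 counts in the 10 RAW-Blue libraries and 27 in the 14 K-Luc libraries, too few to test. Tnfrsf9, known as 4-1BB, ranged from 20.7 to 37.2 CPM over the 10 libraries and was called in no comparison within RAW-Blue.

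In K-Luc the largest response was that of Fas, the death receptor for Fas ligand. Fas stood at 2.85 and 3.89 CPM untreated, 3.77, 4.67 and 4.10 CPM with SWNT/LP, 6.67, 8.44 and 7.84 CPM with CpG, 7.97, 8.10 and 7.65 CPM with CpG+SWNT/LP, and 10.9, 12 and 11.1 CPM with SWNT/CpG. Every library given CpG-28 was above every library without it, and the 3 SWNT/CpG libraries were above all others. Against untreated, Fas rose 2.14-fold with CpG (1.10 ± 0.16, adjusted p = 8.24e-05), 2.27-fold with CpG+SWNT/LP (1.18 ± 0.15, adjusted p = 4.08e-05) and 3.24-fold with SWNT/CpG (1.70 ± 0.15, adjusted p = 1.94e-07). The SWNT/LP value was 0.24 ± 0.17 (adjusted p = 0.964, 95% interval -0.12 to 0.59). SWNT/CpG was higher than CpG (0.60 ± 0.11, adjusted p = 0.00142), CpG+SWNT/LP (0.52 ± 0.11, adjusted p = 0.00280) and SWNT/LP (1.46 ± 0.12, adjusted p = 1.05e-07). CpG+SWNT/LP and CpG differed by 0.08 (95% interval -0.16 to 0.33). Fas was also higher with CpG+SWNT/LP and with CpG than with SWNT/LP (0.94 ± 0.13 and 0.86 ± 0.12, adjusted p = 5.13e-05 and 4.85e-05).

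The Fas calls held in every alternative run. Across them the SWNT/CpG value against untreated ran from 1.55 to 1.97, and with replicates 2 and 3 only it was 1.57. The untreated libraries rest on 38 and 88 Fas counts and the SWNT/CpG libraries on 147 to 254. The summed level of 5 fibroblast and vessel markers, of which 2 were above 1 CPM on average, also stood higher in the groups given CpG-28: 4120 to 5291 CPM untreated, 3895 to 5303 with SWNT/LP, 6768 to 7841 with CpG, 6599 to 7287 with CpG+SWNT/LP and 7865 to 8752 with SWNT/CpG. None of the 5 was at 0 in all libraries, and their part in the result was not tested. Over the 14 K-Luc libraries, the genes whose log2 CPM followed Fas most closely were Zfc3h1 (Pearson r = 0.981), Serf2 (0.973) and Lpcat2 (0.968). Over the 10 RAW-Blue libraries, those closest to Tnf were Sntb2 (r = 0.997), the granulocyte growth factor Csf3 (0.995) and the inducible nitric oxide synthase Nos2 (0.993). These describe shared patterns over libraries that share treatment and depth.

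**Figure D3:**
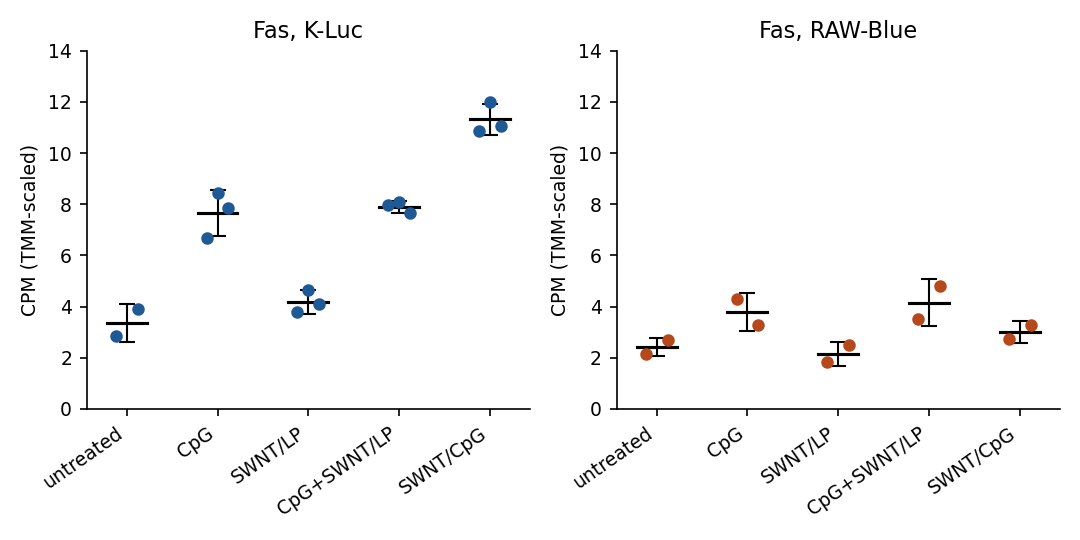
TMM-scaled CPM (y) of Fas by treatment (x) in K-Luc and RAW-Blue on the same axis, with 1 point per library and bars for the mean ± SD. In K-Luc the 3 SWNT/CpG libraries lie at 10.9 to 12 CPM, above all other libraries, whereas the RAW-Blue libraries lie between 1.82 and 4.81 CPM.

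In RAW-Blue, Fas stood at 2.17 and 2.68 CPM untreated, 1.82 and 2.48 CPM with SWNT/LP, 4.30 and 3.27 CPM with CpG, 3.50 and 4.81 CPM with CpG+SWNT/LP, and 2.72 and 3.30 CPM with SWNT/CpG. The CpG and CpG+SWNT/LP libraries were above the untreated ones without overlap, but none of the 4 treatments was called (adjusted p = 0.053 for CpG+SWNT/LP at 0.78 ± 0.25 and 0.427 for SWNT/CpG at 0.31 ± 0.26). Without untreated replicate 2, CpG (0.80, adjusted p = 0.0481) and CpG+SWNT/LP (0.94, adjusted p = 0.0193) were called, and without replicate 1 they were not (0.49 and 0.64, adjusted p = 0.256 and 0.105). The difference between lines was tested in 1 fit of all 24 libraries. The Fas response to SWNT/CpG was smaller in RAW-Blue by 1.39 on the log2 scale (-1.39 ± 0.29, adjusted p = 0.00107), and this was the 1 of 7 testable members called there, beside 25.4% of all genes. Without RAW-Blue untreated replicate 1 or 2 it was -1.50 and -1.27 (adjusted p = 0.00133 and 0.00676). For the CpG response the Fas difference was -0.48 ± 0.29 (adjusted p = 0.269). Tnfrsf1a was the 1 of 7 called for the CpG response, at -0.41 ± 0.12 (adjusted p = 0.0176, beside 21.9%), and it was lost without K-Luc untreated replicate 2, RAW-Blue untreated replicate 1 or either RAW-Blue CpG library.

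Tnfrsf9 in K-Luc was highest with SWNT/LP and SWNT/CpG. It stood at 12.1 and 15.9 CPM untreated, 9.67, 12.8 and 12.6 CPM with CpG, 12.3, 15.2 and 16.4 CPM with CpG+SWNT/LP, 19.2, 20.8 and 23.6 CPM with SWNT/LP, and 18.4, 23.2 and 18.7 CPM with SWNT/CpG. The SWNT/LP and SWNT/CpG libraries were above all others, and these groups overlapped each other. SWNT/CpG was higher than CpG (0.88 ± 0.12, adjusted p = 8.22e-05) and than CpG+SWNT/LP (0.46 ± 0.11, adjusted p = 0.00834), and it differed from SWNT/LP by 0.01 (95% interval -0.22 to 0.24). CpG and CpG+SWNT/LP were lower than SWNT/LP (-0.87 ± 0.11 and -0.45 ± 0.11, adjusted p = 2.03e-05 and 0.00738). Against untreated, it rose with SWNT/CpG (0.46 ± 0.13, adjusted p = 0.00897) and fell with CpG (-0.41 ± 0.14, adjusted p = 0.0301), while SWNT/LP gave 0.45 ± 0.13 (adjusted p = 0.677). The SWNT/CpG call against untreated was lost without either untreated library, and that against CpG+SWNT/LP without replicate 1 of either group or SWNT/CpG replicate 2. Both were also lost in run 2 alone. The CpG call was lost without either untreated library, CpG replicate 1 or CpG+SWNT/LP replicate 1, and with replicates 2 and 3 only (-0.32). No run term, run 2 alone and only the compared groups also ended the CpG call. In each group replicate 1 held the lowest Tnfrsf9 value. Camta1 overlaps Tnfrsf9 on the other strand, and the strand setting of the counting is not given in the sources used here, so reads of the overlap cannot be told apart.

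Its ligand Tnfsf9 had a low level in K-Luc and was highest with SWNT/LP. It stood at 5.62 and 5.88 CPM untreated, 6.31, 6.54 and 6.14 CPM with SWNT/LP, 4.90, 4.80 and 4.52 CPM with CpG, 5.46, 5.64 and 4.79 CPM with CpG+SWNT/LP, and 4.21, 4.54 and 4.77 CPM with SWNT/CpG. The 3 SWNT/LP libraries were the highest of the 14. It was lower with SWNT/CpG and CpG than with SWNT/LP (-0.47 ± 0.11 and -0.42 ± 0.10, adjusted p = 0.00281 and 0.00453). The fall against untreated with SWNT/CpG (-0.35 ± 0.13, adjusted p = 0.0325) was lost in DESeq2, without either untreated library and without SWNT/CpG replicate 1 or 2. The call was also lost with replicates 2 and 3 only (-0.34), with no filter, with the replicate block and in run 2 alone. Tnfsf9 is overlapped by the opposite-strand lincRNA gene Gm11110.

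Tnfrsf1b in K-Luc stood at 117 and 105 CPM untreated, 117, 87.9 and 97.2 CPM with SWNT/LP, 135, 115 and 137 CPM with CpG, 113, 104 and 115 CPM with CpG+SWNT/LP, and 152, 139 and 148 CPM with SWNT/CpG. The SWNT/CpG libraries were above all others. It rose with SWNT/CpG against untreated (0.41 ± 0.10, adjusted p = 0.00513), CpG+SWNT/LP (0.40 ± 0.09, adjusted p = 0.00575) and SWNT/LP (0.51 ± 0.09, adjusted p = 0.000597). Against CpG its value was 0.15 ± 0.09 and not called (adjusted p = 0.313), while with the replicate number as a block it was 0.24 and called (adjusted p = 3.65e-05). CpG was higher than SWNT/LP by 0.36 ± 0.09 (adjusted p = 0.00636), with overlapping libraries. The call against untreated was lost without untreated replicate 2, and that of SWNT/CpG against CpG+SWNT/LP in run 2 alone. With replicates 2 and 3 only, SWNT/CpG gave 0.45 against untreated, 0.40 against CpG+SWNT/LP and 0.64 against SWNT/LP, all called, and 0.19 against CpG (adjusted p = 0.177). The SWNT/CpG responses of the lines differed for Tnfrsf1b by 0.05 (95% interval -0.29 to 0.39).

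Tnfrsf12a, the member with the highest level in K-Luc, stood at 162 and 205 CPM untreated, 169, 202 and 197 CPM with SWNT/LP, 132, 167 and 154 CPM with CpG, 124, 169 and 163 CPM with CpG+SWNT/LP, and 157, 195 and 194 CPM with SWNT/CpG. Replicate 1 was the lowest library of each group, and treated groups overlapped the untreated libraries, while CpG lay below SWNT/LP without overlap. The run named in the labels, a term of the fit, was called for Tnfrsf12a (run 1 minus run 2 of -0.36, adjusted p = 0.00422). In K-Luc, run 1 held replicate 1 from the untreated, CpG+SWNT/LP and SWNT/CpG groups and nothing else. The run term therefore adjusted those libraries, but not the low first libraries given CpG (132 CPM) or SWNT/LP (169 CPM). Run and replicate number are thus partly mixed in these values. With the run term Tnfrsf12a fell with CpG (-0.45 ± 0.09, adjusted p = 0.00142) and CpG+SWNT/LP (-0.33 ± 0.08, adjusted p = 0.00719), and the SWNT/CpG value was -0.07 ± 0.08 (adjusted p = 0.531). SWNT/CpG was above CpG and CpG+SWNT/LP (0.38 ± 0.08 and 0.26 ± 0.07, adjusted p = 0.00350 and 0.0235). CpG was below SWNT/LP (-0.33 ± 0.07, adjusted p = 0.00291). All 5 of these calls were lost without the run term. The CpG+SWNT/LP call against untreated was also lost without untreated replicate 2 or CpG+SWNT/LP replicate 1. The call of SWNT/CpG against CpG+SWNT/LP was lost without any SWNT/CpG library or CpG+SWNT/LP replicate 1 or 3. Both were also lost in run 2 alone. With replicates 2 and 3 only the CpG value was -0.35 and called, against 1 untreated library, the higher of the pair. With the replicate number as a block, CpG against untreated gave -0.35 and SWNT/CpG against CpG gave 0.30, both called. Tnfrsf12a overlaps Hcfc1r1 in the RefSeq annotation.

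**Figure D4:**
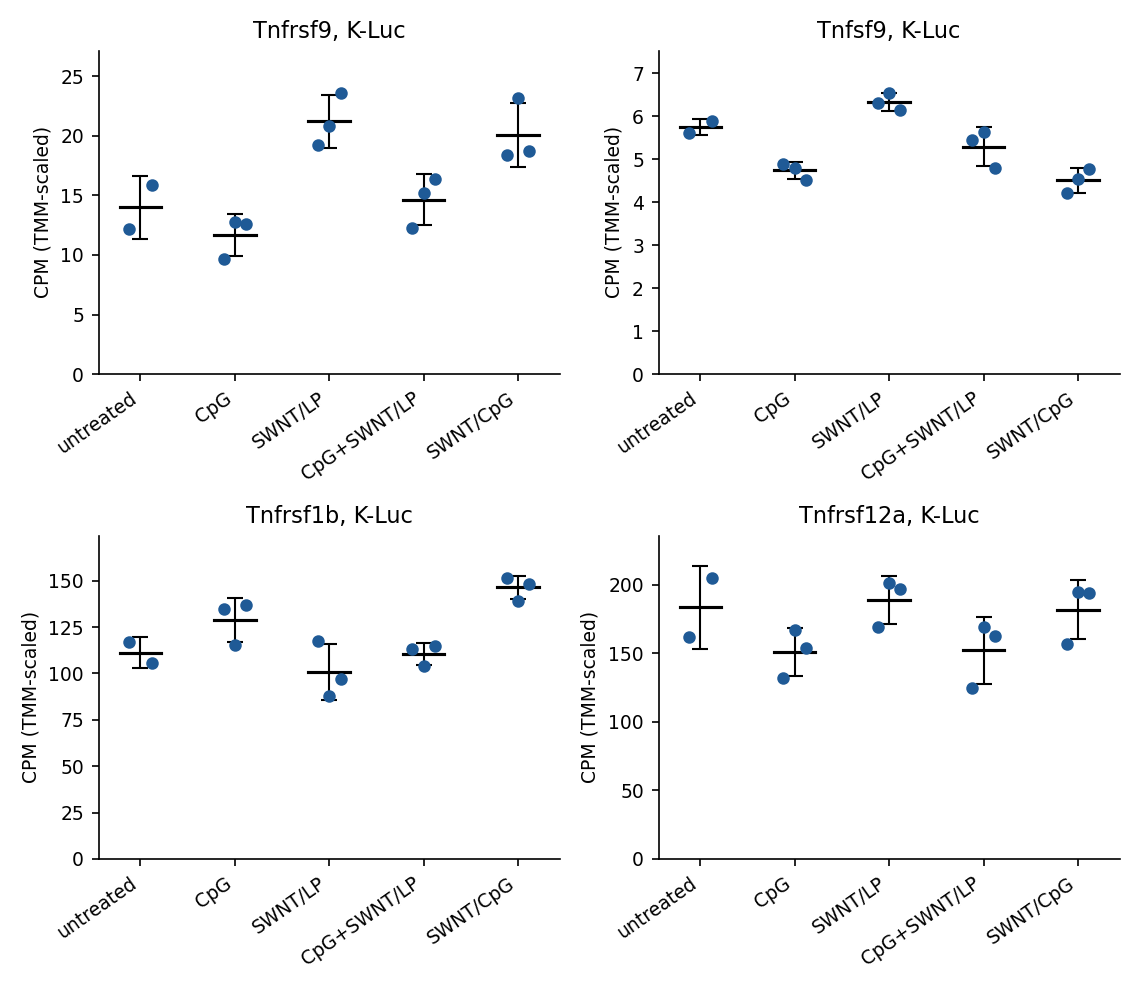
TMM-scaled CPM (y) of Tnfrsf9, Tnfsf9, Tnfrsf1b and Tnfrsf12a in K-Luc by treatment (x), 1 point per library in replicate order, bars for the mean ± SD. Tnfrsf9 is highest with SWNT/LP and SWNT/CpG, Tnfrsf1b with SWNT/CpG, and Tnfsf9 with SWNT/LP.

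The remaining testable K-Luc members, Tnfrsf1a (85.3 to 105 CPM over 14 libraries), the widely expressed first TNF receptor, and Tnfrsf10b (8.32 to 11.1 CPM), were called in no comparison within the line. Their SWNT/CpG values against untreated had 95% intervals of -0.06 to 0.23 and -0.32 to 0.23. With replicates 2 and 3 only, Tnfrsf1a was called higher with CpG (0.19), CpG+SWNT/LP (0.16) and SWNT/CpG (0.14), each against 1 untreated library. Of 7 tested members, 3 passed with CpG (36.2% of all genes), 2 with CpG+SWNT/LP (33.9%) and 4 with SWNT/CpG (43.1%), shares of so few members that lie near the background. With CpG+SWNT/LP 1 rose and 1 fell (16.1% and 17.8% of all genes). In SWNT/LP against untreated 0 of 7 passed in edgeR and in DESeq2 (0.129% of all genes, 0.0886% higher and 0.0403% lower), and 1 had an unadjusted p under 0.05. SWNT/CpG called 3 against CpG (14.9%), 3 against SWNT/LP (41.7%) and 4 against CpG+SWNT/LP (17.7%). CpG+SWNT/LP called 2 against SWNT/LP (30.8%), CpG called 5 against SWNT/LP (39.5%), and CpG+SWNT/LP against CpG called 0 in both tools (0.266%), with 2 at an unadjusted p under 0.05. The test for any difference over the 5 groups called 5 (51.6%). For the runs without 1 library that follow, the share of all genes called was not computed. Their counts cannot be read as a result about the members. Without untreated replicate 2, 1 member, Fas, passed for SWNT/CpG against untreated, and without untreated replicate 1, 2 did. Without SWNT/LP replicate 1, 5 passed for CpG against untreated and 4 for CpG+SWNT/LP against SWNT/LP. CpG+SWNT/LP against untreated kept 1 call without untreated replicate 2 or CpG+SWNT/LP replicate 1, and SWNT/CpG against CpG+SWNT/LP kept 2 without replicate 1 of either group or SWNT/CpG replicate 2.

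**Figure D5:**
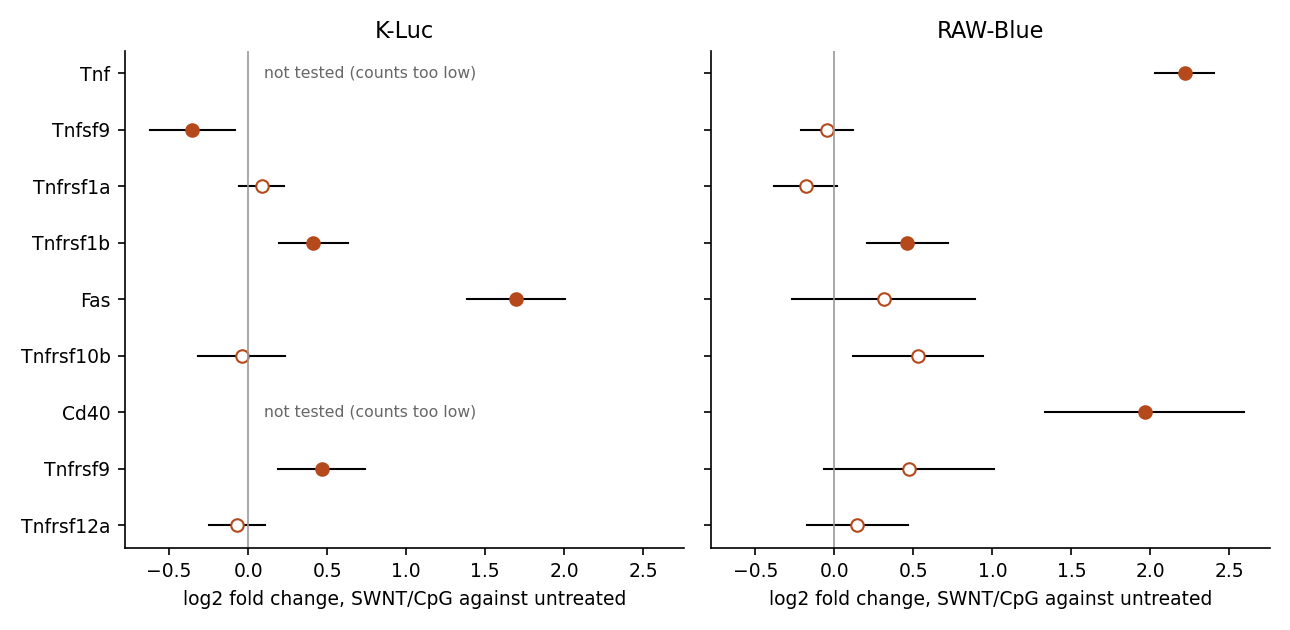
Log2 fold change (x) of SWNT/CpG against untreated for 9 members, with 95% intervals and filled points for called genes. RAW-Blue has a value for all 9 and K-Luc for 7, with Tnf and Cd40 marked as not tested there. Fas stands out in K-Luc (1.70) and Tnf (2.22) and Cd40 (1.96) in RAW-Blue. Tnfsf10 had too few counts in both lines.

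The wider pathway was described with a list of 69 other ligands, receptors and signalling genes, of which 68 were in the table and 47 were tested in each line. In K-Luc, 12 were higher and 3 lower with SWNT/CpG, against a background of 21.8% higher and 21.3% lower, and 4 higher and 8 lower with CpG (17.9% and 18.4%). In CpG+SWNT/LP 4 were higher and 6 lower, beside 16.1% and 17.8% of all genes. With SWNT/LP none passed in edgeR (0.129% of all genes did) or DESeq2, with 1 at an unadjusted p under 0.05. The median log2 fold change of the list with SWNT/CpG was 0.05, beside 0.01 for all tested genes. By role, the 15 were 3 rises and 1 fall among 13 receptors, 6 rises among 19 adaptors, ubiquitin ligases and kinases, 1 rise and 2 falls among 7 genes of the death machinery, and 2 rises among 5 genes of restraint and shedding, with none of 3 ligands. Without untreated replicate 2 fewer list genes were called for SWNT/CpG, CpG and CpG+SWNT/LP, and for the last also without untreated replicate 1. Each of these runs left 1 untreated library. The share of all genes called was not computed for them, so the drop cannot be read as a result about the list.

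Among the K-Luc list genes named, the largest rise was that of Tnfrsf11b, the secreted decoy receptor osteoprotegerin, from 4.36 ± 0.41 CPM (SD, n = 2) to 14.3 ± 1.46 CPM (SD, n = 3) with SWNT/CpG (1.76 ± 0.17, adjusted p = 8.73e-07). Tnfrsf25, a death-domain receptor, rose by 1.03 ± 0.14 with SWNT/CpG and by 0.72 ± 0.15 with CpG. Of the genes that restrain NF-κB signalling, Tnfaip3 (known as A20) rose by 0.82 ± 0.12 and its partner Tnip1 by 0.65 ± 0.08, from 34.9 ± 1.66 to 54.3 ± 1.43 CPM (SD, n = 2 and 3). The adaptor Traf1 rose by 0.68 ± 0.20. The necroptosis effector Mlkl fell (-0.27 ± 0.06). CpG alone raised Tnfsf12, the ligand of Tnfrsf12a (0.55 ± 0.11), and Tnip1 (0.28 ± 0.09). It lowered Traf3 (-0.34 ± 0.07) and the decoy receptor Tnfrsf23 (-0.29 ± 0.08), whose reads may be shared with its near copies. Adjusted p for these genes ranged from 8.73e-07 to 0.0167.

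In RAW-Blue, 10 list genes were higher and 2 lower with SWNT/CpG (background 12.8% and 10.4%), 10 higher and 6 lower with CpG+SWNT/LP (10.1% and 10.1%), 6 higher and 1 lower with CpG (5.18% and 5.60%), and 1 higher and none lower with SWNT/LP (0.434% and 0.0434%). By role, the SWNT/CpG calls were 2 rises among 6 ligands, 2 among 9 receptors, 4 among 8 genes of the death machinery and 1 among 5 of restraint and shedding, and 1 rise and 2 falls among 19 adaptors, ubiquitin ligases and kinases. Traf1 rose from 8.83 ± 0.46 to 26.1 ± 2.94 CPM (SD, n = 2 each) with SWNT/CpG (1.56 ± 0.16, adjusted p = 0.000129) and by 0.93 ± 0.16 with CpG. Mlkl rose by 0.95 ± 0.12 with SWNT/CpG, and its response was higher than that in K-Luc by 1.22 ± 0.13 (adjusted p = 4.64e-07). Cflar, the caspase-8 inhibitor FLIP, rose by 0.83 ± 0.13 with SWNT/CpG and 0.60 ± 0.13 with CpG, and Tnip1 by 0.82 ± 0.10 and 0.74 ± 0.10. Tnfrsf26 rose by 0.55 ± 0.08 with SWNT/CpG. The ubiquitin ligase subunit Rbck1 (-0.35 ± 0.09 with SWNT/CpG, -0.33 ± 0.09 with CpG) and the kinase Map3k14 (-0.31 ± 0.09 with SWNT/CpG) fell. Adjusted p for these ranged from 0.000129 to 0.0402. The counts that follow come from runs without 1 library, for which the share of all genes called was not computed. They cannot be read as a result about the list. The number called for SWNT/CpG was 21 and 27 without untreated replicate 1 and 2, and 6 and 7 without SWNT/CpG replicate 1 and 2. For CpG it was 17 and 22 without the untreated replicates, and 3 and 1 without the CpG replicates. For CpG+SWNT/LP it was 7 without either library of that group and 10 without either SWNT/LP library. For SWNT/LP it was 13 without untreated replicate 2 and 0 without any of 8 treated libraries.

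Tlr9 itself stood at 16.2 ± 0.42 CPM in untreated RAW-Blue (SD, n = 2), 22.1 ± 0.42 with CpG, 18.8 ± 1.42 with CpG+SWNT/LP, 13.1 ± 0.23 with SWNT/LP and 19.0 ± 1.39 with SWNT/CpG. In K-Luc it had at most 3 counts in any group, which lies at or under the floor of 3 counts.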

How the data were processed

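RNA was sequenced from 24 libraries of poly(A) RNA made with a stranded kit, per the labels' protocols. The submitters' processing notes list TopHat2 2.0.14, HTSeq 0.6.0 and build mm9. For annotation, filters and strand setting: not stated by the sources at hand. The authors deposited raw read counts for 21669 genes and RPKM with 1 decimal, used here only to compare genes per length. The tests ran on the counts with edgeR 4.0.16 under R 4.3.3 (TMM, filterByExpr with minimum count 10 and minimum total 15, robust quasi-likelihood F test): K-Luc with group and run (14 libraries, 12420 genes), RAW-Blue with group (10 libraries, 11514 genes), and both lines together (24 libraries, 13350 genes). CPM use TMM library sizes. In simulated data with 200 genes changed 2-fold, the SWNT/CpG comparison recovered 86.5% in K-Luc (12309 genes) and 81% in RAW-Blue (11413 genes), with 3 and 13 false calls. Apart from those changes, simulated libraries shared 1 mean profile and the same spread in every group, without run or replicate differences. These figures therefore do not give the recovery or the false calls for smaller changes in the real libraries.

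Between-line tests used the 7 members with more than 3 counts in each compared group. Named genes of the pathway list are the called genes without overlap between libraries and with mean log2 CPM of at least 1: up to 5 rises and 5 falls for SWNT/CpG, 3 and 3 for CpG. A gene that this rule names is not reported here. Like patterns were taken for the member with the largest SWNT/CpG change of each line. The members and lists were chosen with earlier results of these data known. Alternatives were DESeq2 1.42.0, its size factors, no filter, each library left out, the replicate block, only the compared groups, no run term and run 2 only. CpG+SWNT/LP and CpG against SWNT/LP, and K-Luc replicates 2 and 3 only, were added after seeing the data.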

Additional observations from a re-analysis of the deposited data

Results flagged for a closer look

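The response of Fas to SWNT/CpG differed between the lines by -1.39 (log2, RAW-Blue minus K-Luc) in a test of the difference itself, edgeR's quasi-likelihood test with an adjusted p of 0.00107. The response of Tnfrsf1a to CpG differed by -0.41 (adjusted p = 0.0176, same test). The lines were also treated for different times, which cannot be told apart from the line.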

How the results depend on the processing

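No called member value changed direction in any alternative, while 40 of all 181 member values, none of them called, changed sign. Of the 49 called member values, 27 kept their call in every alternative run, among them the 8 Fas comparisons within K-Luc and 6 of 7 Tnf comparisons within RAW-Blue. Leaving out 1 library ended 52 of 720 such calls. All groups have 2 or 3 libraries, which limits precision most for low members (18 to 85 Cd40 counts in RAW-Blue).

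The labels do not say what the replicate numbers mark. After subtraction of group means, same-numbered libraries of different groups correlated over 0.1 in 20 of 26 K-Luc pairs and 4 of 20 RAW-Blue pairs. By average correlation, 13 of 14 K-Luc and 10 of 10 RAW-Blue libraries correlated best with their own number. RAW-Blue groups have 2 libraries, so this subtraction makes replicate 2 the mirror of replicate 1. Each RAW-Blue correlation is thereby counted 2 times, and the RAW-Blue figures do not show whether same-numbered libraries were paired. In K-Luc every pair was over 0.1 in 3 of the 6 comparisons with 3 pairs: CpG with SWNT/CpG, CpG with SWNT/LP, and CpG+SWNT/LP with SWNT/CpG. Among these, the block changed the call of 1 member, Tnfrsf1b for SWNT/CpG against CpG (0.24, adjusted p = 3.65e-05), so that 4 were called there. The block also called Tnfrsf1b for CpG (0.13, adjusted p = 0.0355) and SWNT/LP (-0.23, adjusted p = 0.0281) against untreated and for CpG+SWNT/LP against CpG (-0.17, adjusted p = 0.0319) and SWNT/LP (0.19, adjusted p = 0.000457). It called Tnfrsf9 for SWNT/LP against untreated (0.54, adjusted p = 0.0034), Tnfrsf12a for CpG+SWNT/LP against SWNT/LP (-0.29, adjusted p = 8.41e-09) and Tnfrsf10b for the SWNT/CpG response between lines (0.60, adjusted p = 0.0407). It lost Tnfsf9 for SWNT/CpG against untreated (-0.32, adjusted p = 0.0539) and Fas between untreated lines (-0.32, adjusted p = 0.270). No other member call changed. In K-Luc, CpG+SWNT/LP with SWNT/LP had 0 of 3 pairs over 0.1, so the block calls there lack this sign of pairing. Replicate 1 of the untreated, CpG+SWNT/LP and SWNT/CpG groups also shared run 1 (r of 0.38 to 0.50 among them). Run and replicate number cannot be told apart in those correlations. The members called became 2 for K-Luc SWNT/LP against untreated, 1 for K-Luc CpG+SWNT/LP against CpG, 4 for K-Luc CpG+SWNT/LP against SWNT/LP and 2 for the SWNT/CpG response between lines.

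Without the run term 1 member was called for K-Luc CpG and 1 for CpG+SWNT/LP against untreated. In run 2 alone the counts were 1 for CpG+SWNT/LP, 2 for SWNT/CpG against untreated and 1 for SWNT/CpG against CpG+SWNT/LP. With only the compared groups, RAW-Blue counts against untreated were 1 for CpG, 0 for SWNT/LP and 1 for CpG+SWNT/LP. Among treatments they were 1 for SWNT/CpG against CpG, 1 against CpG+SWNT/LP, 1 for CpG+SWNT/LP against CpG, 4 for CpG+SWNT/LP against SWNT/LP and 4 for CpG against SWNT/LP. With no filter they were 1 for SWNT/CpG against CpG+SWNT/LP, 3 for CpG+SWNT/LP and 2 for CpG against SWNT/LP. DESeq2 gave 2 for CpG+SWNT/LP against SWNT/LP, and 2 for the SWNT/CpG response between lines, as did its size factors. The pathway list called 2 for RAW-Blue SWNT/LP in DESeq2 and with no filter. The cause was not tested. Nor was the share of all genes called in each alternative run computed, so these counts and the ranges below have no background beside them.

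Leaving out each library in turn gave ranges of called members in K-Luc of 2 to 5 for CpG, 1 to 2 for CpG+SWNT/LP and 1 to 4 for SWNT/CpG against untreated, 2 to 4 for SWNT/CpG against CpG+SWNT/LP, and 2 to 4 for CpG+SWNT/LP against SWNT/LP. In RAW-Blue they were 1 to 4 for CpG, 0 to 2 for SWNT/LP, 1 to 4 for CpG+SWNT/LP and 2 to 5 for SWNT/CpG against untreated. Among treatments they were 0 to 1 for SWNT/CpG against CpG and against CpG+SWNT/LP, 0 to 2 for CpG+SWNT/LP against CpG, 1 to 4 for CpG+SWNT/LP against SWNT/LP, 1 to 3 for CpG against SWNT/LP, and 2 to 7 for any difference. Between lines they were 1 to 2 for the SWNT/CpG response, 0 to 2 for the CpG response and 4 to 7 for untreated levels. For the pathway list they were 5 to 16 for CpG, 3 to 10 for CpG+SWNT/LP and 7 to 16 for SWNT/CpG in K-Luc, and 1 to 22 for CpG, 0 to 13 for SWNT/LP, 7 to 24 for CpG+SWNT/LP and 6 to 27 for SWNT/CpG in RAW-Blue.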
